A study of Mus musculus with 13 samples.

Results

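The 6 genes described here, H2-K1, H2-D1, B2m, Nlrc5, Tap1 and Tap2, form the core of the MHC class I antigen presentation pathway. They were taken by name from the 57010 genes in each of the gene lists, and all 6 were present in both. They were followed through the maturation of thymocytes, the developing T cells of the thymus, and then set beside T, B, myeloid and erythroid cells of the remaining samples. Single cells were profiled with the Parse Evercode combinatorial barcoding method, in which fixed cells are labelled in successive rounds of split wells, with the WT kit (20 tissue samples in 9 sublibraries) and the smaller Mini kit (4 tissue samples in 2 sublibraries). Parse WT samples 1 to 4 were thymic lobes of 2 female C57BL/6N mice aged 2 months, with the lobes of a mouse treated as technical replicates. Their match to lobes rests on the order of the sample names. The 4 Mini samples, T-1-A, T-1-B, T-2-A and T-2-B, were also labelled as thymus, from a repeat with the same set-up. Whether the number or the letter names the mouse is not stated. The labels describe the other 16 Parse WT samples (CVS_C, CVS_S and YD_C) jointly as thymus and spleen, control and chronic stress, young and adult, without tying these to single samples, and the study's text calls them non-thymic. Their cell classes were compared within samples by values, ratios and counts of samples, without a test. Values set beside those of the thymic samples carry no test either.

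MHC class I molecules show peptides from inside the cell to CD8 T cells. H2-K1 and H2-D1 encode the classical heavy chains, which carry the peptide, and B2m encodes beta-2-microglobulin, the light chain that all class I molecules share. Tap1 and Tap2 encode the subunits of the transporter that moves peptides from the cytosol into the endoplasmic reticulum, and Nlrc5 encodes the transactivator of class I genes, which acts with factors already bound at their promoters. In the thymus, double-negative (DN) progenitors become double-positive (DP) cells that proliferate (DP-P) and then recombine their T cell receptor genes (DP-R), and cells that pass selection (DP-S) become CD4 or CD8 single-positive (SP) cells. Double-positive thymocytes are known for low surface class I.

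H2-K1 (chr17:33996017-34000347, minus strand), Tap1 (chr17:34187553-34197225, plus strand), Tap2 (chr17:34203527-34216321, plus strand) and H2-D1 (chr17:35262730-35267499, plus strand) lie in the MHC region. B2m (chr2:122147686-122153083) and Nlrc5 (chr8:94434356-94527272) lie on other chromosomes, both on the plus strand (GENCODE M21, GRCm38). The 250 bases before the RefSeq start were in the RefSeq promoter table (GRCm38.p6) for 4 of the 6 genes, and not for Nlrc5 and Tap2. RefSeq and GENCODE starts differ, most for H2-D1, whose stretch lies inside the gene as GENCODE gives it. They are shown because both heavy chain genes carry the same arrangement of motifs. Capitals mark matches, on either strand, to an NF-kB site (GGGATTCCC), an interferon regulatory factor site (AANNGAAA, written TTTCACTT on the opposite strand), a CRE core (TGACG) and an NF-Y site (CCAAT, written ATTGG on the opposite strand). None of the marked matches overlap each other. The sequences stand for chr17:34000334-34000583 (minus strand), chr17:35262844-35263093, chr2:122147437-122147686 and chr17:34187306-34187555 (plus strand), in this order.
H2-K1: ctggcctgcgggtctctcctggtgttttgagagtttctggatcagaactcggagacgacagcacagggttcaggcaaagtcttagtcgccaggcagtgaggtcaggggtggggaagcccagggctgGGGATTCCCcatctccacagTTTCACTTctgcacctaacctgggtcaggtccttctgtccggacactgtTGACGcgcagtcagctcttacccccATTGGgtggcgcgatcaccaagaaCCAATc
H2-D1: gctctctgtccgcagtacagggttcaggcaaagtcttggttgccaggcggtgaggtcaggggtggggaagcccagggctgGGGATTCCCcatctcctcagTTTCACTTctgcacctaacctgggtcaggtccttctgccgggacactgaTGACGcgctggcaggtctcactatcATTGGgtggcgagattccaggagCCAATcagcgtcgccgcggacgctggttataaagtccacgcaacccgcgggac
B2m: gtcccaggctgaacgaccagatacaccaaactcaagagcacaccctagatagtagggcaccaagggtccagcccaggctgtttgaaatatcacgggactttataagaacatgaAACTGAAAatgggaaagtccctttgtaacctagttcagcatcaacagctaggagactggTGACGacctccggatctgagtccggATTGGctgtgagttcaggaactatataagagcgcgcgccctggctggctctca
Tap1: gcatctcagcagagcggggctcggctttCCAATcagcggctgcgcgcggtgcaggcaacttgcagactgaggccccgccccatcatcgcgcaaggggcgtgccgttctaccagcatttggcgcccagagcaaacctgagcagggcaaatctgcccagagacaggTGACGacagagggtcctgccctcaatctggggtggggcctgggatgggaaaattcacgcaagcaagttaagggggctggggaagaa

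In H2-K1 the motifs began 124 (NF-kB), 104 (interferon regulatory factor), 55 (CRE), 30 and 6 (NF-Y) bases before the start. In H2-D1 they came in the same order, from 170, 150, 101, 76 and 53 bases before its RefSeq start. B2m had the last 3 kinds at 137, 78 and 53 bases, and no match to the exact letters GGGATTCCC. Other forms of an NF-kB site were not searched for. Tap1 held a CRE core at 86 bases and an NF-Y site at 222 bases before the start. Of the 32851 RefSeq mouse promoters of this length, 0.301% held the NF-kB site, 21.3% the interferon regulatory factor site, 17.8% the CRE core and 33.9% the NF-Y site. All 4 kinds together stood in 4 promoters of 3 genes, H2-K1 and H2-D1 among them. A match of letters is a description, and no binding was measured in these data.

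The Parse WT thymic samples held 4178 to 15077 cells and 30451000 to 124110000 UMIs (counted transcript molecules) each, the Mini samples 4498 to 5426 cells and 28057000 to 33264000 UMIs, and the other 16 samples 2109 to 8406 cells and 5405100 to 91172000 UMIs. Median UMIs per cell were 3227 to 4263, 2388 to 3221 and 1527 to 8039. Nuclear ribosomal and mitochondrial ribosomal RNA, which took 13.3 to 35.5% of the UMIs in Parse WT and 14.8 to 17.5% in Mini, was left out of the denominator, so levels (CPM) are counts per 1000000 UMIs of all other genes. Clusters were named from marker genes that did not include any gene of the pathway or of its related lists, and 33642 of 37401 clustered Parse WT thymic cells and 16752 of 18309 Mini cells received a name. Parse WT held 15504 DP-R-like, 5619 DP-P-like, 2040 DP-S-like and 1070 DN-like cells, 4429 cells led by both selection and CD4 lineage markers (DP-S/SP-CD4-like) and 2805 mature SP-like cells, led by mature T cell genes such as S1pr1 and Ms4a4b. Mini held 8966, 2619, 1629, 449, 1065 and 1767 cells of these classes. One of the 2 DP-S-like clusters in each kit (755 cells in Parse WT, 609 in Mini) had no DP-S marker among its 10 leading genes but Ikzf2, a marker of regulatory T cells (Tregs), which the other cluster had beside 1 DP-S marker. Over the whole list, however, DP-S markers were raised more in the clusters of 755 and 609 cells, by a mean log2 fold of 2.34 and 2.38. In the other DP-S-like cluster of each kit this mean was 0.926 (Parse WT) and 1.202 (Mini). A DP-R-like cluster of 1806 Mini cells had F13a1, a monocyte marker, among its 10 leading genes. No DP-R marker was among the 10 leading genes of any of the 5 DP-R-like clusters of Mini or of 2 of the 5 of Parse WT. Values without these clusters, an alternative chosen after seeing the data, are given where they change a call. Well combinations that recurred in another sublibrary accounted for 34.9% of Parse WT and 13.5% of Mini cell barcodes, and sublibraries were therefore kept apart when cells were numbered.

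The heavy chain genes were low in DP-R-like cells and higher in mature SP-like cells in every thymic sample. H2-K1 measured 11.9, 15.4, 13.9 and 17.1 CPM in the DP-R-like cells of Parse WT samples 1 to 4, and 331, 172, 234 and 225 CPM in their mature SP-like cells. In Mini the DP-R-like values were 7.65, 7.53, 10.6 and 8.21 CPM and the mature values 96.5, 180, 166 and 173 CPM, in the order T-1-A, T-1-B, T-2-A and T-2-B. The lowest mature sample lay above the highest DP-R-like sample in each kit. The mature cells of sample 1, the sample with the fewest cells, were the highest of Parse WT, and those of T-1-A the lowest of Mini. In the edgeR quasi-likelihood fit on the counts summed per sample and class, with the tissue sample as a block, H2-K1 was 15.4-fold higher in Parse WT (log2 difference 3.94, SE 0.10, edgeR adjusted p = 1.98e-32, n = 4 samples per class) and 17.6-fold higher in Mini (4.14, SE 0.12, edgeR adjusted p = 4.53e-43, n = 4). H2-D1 measured 27.5, 37.6, 35.4 and 33.6 CPM in DP-R-like cells and 219, 174, 192 and 167 CPM in mature SP-like cells of Parse WT. The Mini values of H2-D1 were 25.5, 24.4, 25.2 and 29.4 CPM against 95.6, 139, 136 and 157 CPM. The classes again did not overlap, and H2-D1 rose 5.45-fold in Parse WT (2.45, SE 0.09, edgeR adjusted p = 9.36e-28) and 4.90-fold in Mini (2.29, SE 0.09, edgeR adjusted p = 3.90e-34). The mature class of each kit held a cluster with high UMIs per cell, described further on, and without it H2-K1 was 23.1-fold and 44.5-fold higher and H2-D1 7.79-fold and 10.8-fold.

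Of the 6 genes, 5 rose at least 2-fold in both kits, with Tap1 at the limit in Mini, where 9.08% of the 11327 genes tested in Parse WT and 7.47% of the 10189 genes tested in Mini did so. Tap1 was under this limit, which leaves 4 genes past it, under 13 of 24 alternatives in Mini and 2 of 24 in Parse WT. In Mini these included leaving out T-1-B, T-2-A or T-2-B (0.95, 0.99 and 0.89 on the log2 scale) and the clusters led by markers of another class (1.98-fold). Without the fold limit, 25.7% and 21.2% of the genes tested were higher. The p-values measure how far the differences between classes vary from sample to sample, pooled over all classes of a kit. The spread of the samples themselves is taken out by the block. In each kit the samples come from 2 mice split into technical replicates, so the p-values do not measure the spread between mice. H2-K1 and H2-D1 share part of their sequence with each other and with relatives such as H2-Q10 and H2-Q1. Of all 50-base stretches of their annotated transcripts, 9.63% of those of H2-K1 and 12.8% of those of H2-D1 occurred in another gene, so a part of their reads could have been assigned among these genes. For B2m and Nlrc5 no such stretch was shared, and for Tap1 and Tap2 the share was 0.442% and 0.655%.

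**Figure D1:**
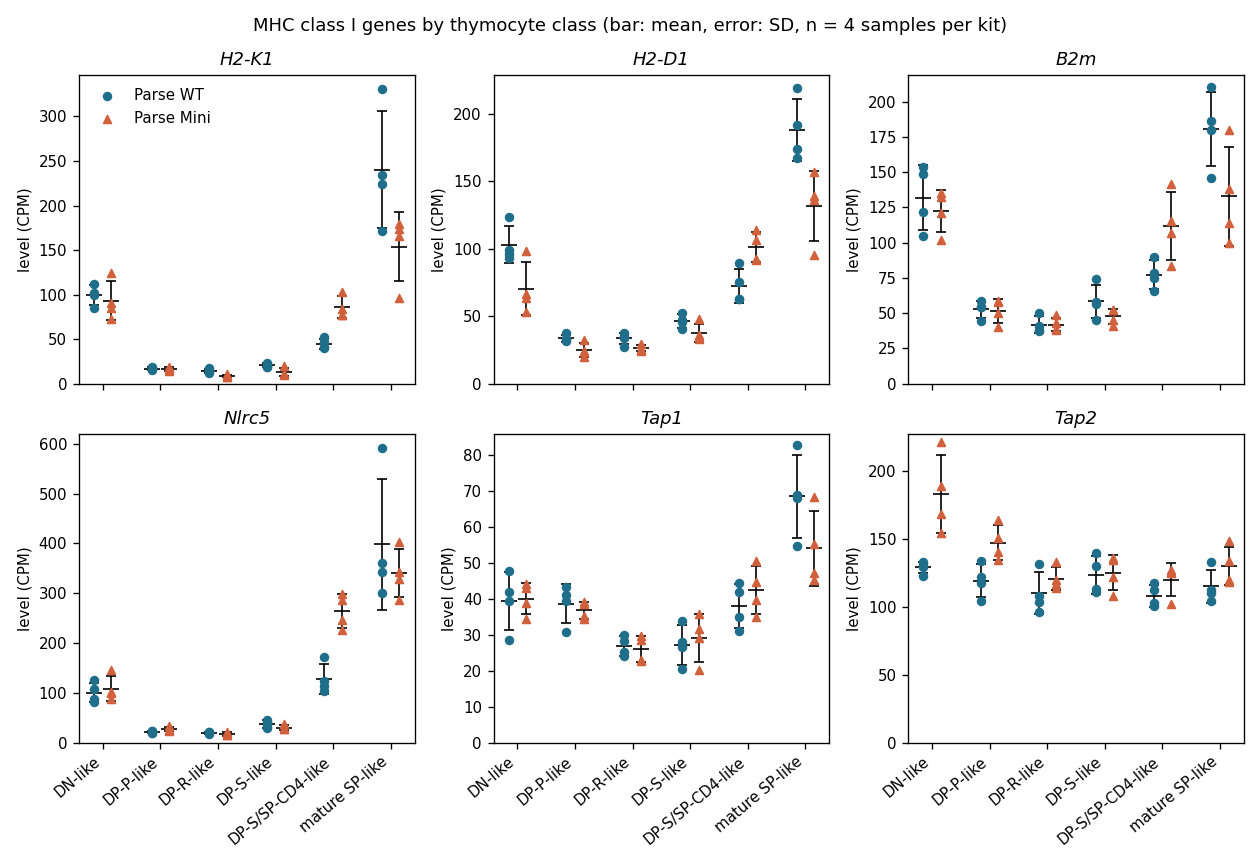
Levels of the 6 genes (CPM) by thymocyte class, with 1 point for each of the 4 Parse WT samples (circles) and 4 Mini samples (triangles), a bar at the mean and a line for 1 SD. H2-K1 lies between 7.53 and 17.1 CPM in all DP-R-like samples and between 96.5 and 331 CPM in all mature SP-like samples, while the Tap2 points of these classes overlap.

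The light chain gene B2m measured 38.2, 50.4, 40.8 and 37.4 CPM in DP-R-like cells and 210, 186, 180 and 146 CPM in mature SP-like cells of Parse WT. In Mini it measured 42.8, 48.3, 37.9 and 38.5 CPM against 114, 180, 99.8 and 138 CPM. No DP-R-like sample reached a mature one. Its rise was 4.23-fold in Parse WT (2.08, SE 0.08, edgeR adjusted p = 5.16e-30) and 3.05-fold in Mini (1.61, SE 0.09, edgeR adjusted p = 3.50e-27). Without the mature clusters of high UMIs, B2m was 6.01-fold and 6.49-fold higher. Of the 6 genes, in the whole classes, B2m had the largest gap between kits, where the log2 ratio of mature to DP-R-like CPM within samples was 0.48 higher in Parse WT than in Mini. This gap did not pass an exact two-sided permutation test over the 4 and 4 samples (p = 0.0571, adjusted over 6 genes 0.343, with 0.0286 the smallest p this design allows). Kit and mice cannot be told apart, and the test counted the lobes of a mouse as separate samples.

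The transporter genes parted from each other. Tap1 measured 24.02, 28.2, 29.96 and 25.3 CPM in DP-R-like cells and 82.8, 68.1, 69.0 and 54.6 CPM in mature SP-like cells of Parse WT, and in Mini 29.7, 22.98, 22.8 and 28.6 CPM against 47.3, 55.3, 45.2 and 68.3 CPM. It rose 2.46-fold in Parse WT (1.30, SE 0.10, edgeR adjusted p = 8.17e-18) and 2.00-fold in Mini (1.00, SE 0.11, edgeR adjusted p = 2.01e-12). Without the mature clusters of high UMIs the rise was 3.53-fold and 3.65-fold. Tap2, which lies close to Tap1 in the same orientation, measured 96.3, 103, 132 and 108 CPM in DP-R-like cells and 110, 105, 133 and 112 CPM in mature SP-like cells of Parse WT. Its samples overlapped between the classes in both kits. Its difference did not pass the test in Parse WT (0.06, 95% interval -0.08 to 0.19, edgeR adjusted p = 0.511) or in Mini (0.06, SE 0.07, edgeR adjusted p = 0.534). With cells picked by their marker UMIs in place of clusters, Tap2 was lower in mature cells of Parse WT (-0.23, edgeR adjusted p = 0.0494) and its Mini value was -0.30 (edgeR adjusted p = 0.0521).

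Nlrc5, the transactivator gene, had the largest fitted fold change of the 6 genes in both kits, followed by H2-K1. In Mini this order turned in cells thinned to 1000 UMIs (4.61 for Nlrc5 and 4.77 for H2-K1 on the log2 scale) and in the third first-round well (4.07 and 4.27). It measured 19.0, 16.7, 20.8 and 20.3 CPM in DP-R-like cells of Parse WT and 591, 300, 360 and 342 CPM in mature SP-like cells. In Mini the values were 21.8, 15.3, 14.4 and 17.3 CPM against 329, 402, 287 and 343 CPM. Every mature sample was above every DP-R-like sample, and Nlrc5 rose 19.6-fold in Parse WT (4.29, SE 0.11, edgeR adjusted p = 5.79e-24) and 19.3-fold in Mini (4.27, SE 0.10, edgeR adjusted p = 6.28e-35). Without the mature clusters of high UMIs it was 29.3-fold and 47.7-fold higher. Within single first-round wells, the log2 difference of Nlrc5 lay at 4.22 to 4.27 in Parse WT and 4.07 to 4.52 in Mini, and that of H2-K1 at 3.84 to 3.97 and 4.03 to 4.27.

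H2-K1, H2-D1, B2m and Nlrc5 were higher in DN-like than in DP-P-like cells, a class led by cell-cycle markers. Cycling clusters that also had markers of mature, SP, Treg or non-T cells stayed unnamed, and the comparison below leaves them out. Over all samples together, their H2-K1 was 74.7 CPM (2353 cells) and 61.7 CPM (1300 cells) in Parse WT. In Mini it was 80.3 CPM (706 cells) and 19.8 CPM (524 cells). The DN-like cluster had a median doublet score at percentile 72.3 in Parse WT and 75.2 in Mini. Those of the DP-P-like clusters were at 32.8 to 72.1 and 47.6 to 76.5. The part of doublets or of RNA of other classes in these levels was not tested. DN-like cells, which are led by Il2ra, had 112, 84.5, 102 and 99.0 CPM of H2-K1 in Parse WT and 73.1, 90.1, 84.7 and 124 CPM in Mini. DP-P-like cells had 18.6, 15.9, 17.3 and 15.4 CPM in Parse WT and 14.1, 15.6, 18.0 and 18.1 CPM in Mini. All DN-like samples lay above all DP-P-like samples. H2-K1 was 5.71-fold higher in DN-like than in DP-P-like cells of Parse WT (2.51 on the log2 scale) and 5.43-fold higher in Mini (2.44). H2-D1 was 2.83-fold and 2.73-fold higher, B2m 2.34-fold and 2.29-fold, and Nlrc5 4.30-fold and 3.86-fold, and all 4 genes passed the test in both kits, where 21.9% (Parse WT) and 18.6% (Mini) of the genes tested were higher. Tap1 did not differ beyond the spread in Parse WT (0.08, edgeR adjusted p = 0.613) or Mini (0.07, edgeR adjusted p = 0.755). Tap2 was 1.19-fold higher in Mini (0.25, edgeR adjusted p = 0.00651), a call lost without T-2-B (edgeR adjusted p = 0.0872), and its Parse WT value was 0.07 (edgeR adjusted p = 0.483).

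The DN-like level was below the mature one for the heavy chain genes and Nlrc5. Mature SP-like cells had 2.42-fold more H2-K1, 1.92-fold more H2-D1 and 3.99-fold more Nlrc5 than DN-like cells in Parse WT, and 1.70-fold, 1.94-fold and 3.25-fold more in Mini, all past the test. B2m was 1.43-fold higher in mature cells of Parse WT and differed by 0.15 in Mini (edgeR adjusted p = 0.245). Without the mature clusters of high UMIs, B2m was 2.13-fold higher in Parse WT and 2.44-fold higher in Mini (edgeR adjusted p = 5.05e-16), H2-K1 3.81-fold and 4.48-fold and Nlrc5 6.30-fold and 8.32-fold. For these mature to DN-like comparisons, 22.3% and 20.1% of the genes tested were higher in mature cells. As a share of the mature level in the same sample, Nlrc5 in DN-like cells came to 25.9% ± 3.58 (SD, n = 4) in Parse WT and 32.2% ± 7.87 in Mini, and B2m to 73.1% ± 7.27 and 95.6% ± 19.9. H2-K1 came to 42.7% ± 6.32 and 62.1% ± 13.4. From DP-P-like to DP-R-like cells the heavy chain genes moved little in Parse WT, where the difference of H2-K1 was 0.16 (edgeR adjusted p = 0.281), while in Mini H2-K1 was 1.90-fold higher in DP-P-like cells (edgeR adjusted p = 8.26e-07). Tap1 was 1.41-fold and 1.38-fold higher in DP-P-like than in DP-R-like cells, in a comparison in which 32.4% of the genes tested were higher in both kits.

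The first step after recombination was small. H2-K1 measured 18.9, 18.8, 21.2 and 23.5 CPM in the DP-S-like cells of Parse WT, and its difference from DP-R-like cells did not pass the test (0.48, 95% interval 0.02 to 0.94, edgeR adjusted p = 0.128). In Mini the DP-S-like values were 10.97, 10.99, 20.0 and 10.2 CPM, from 8, 12, 20 and 12 UMIs, with T-2-A apart from the others, and the difference was 0.60 (edgeR adjusted p = 0.0836). Nlrc5 in DP-S-like cells measured 45.6, 28.7, 42.4 and 33.1 CPM in Parse WT and 28.8, 27.5, 37.1 and 26.4 CPM in Mini, above every DP-R-like sample of the same kit. It rose 1.85-fold (0.89, edgeR adjusted p = 0.00275) and 1.75-fold (0.81, edgeR adjusted p = 0.002), and without T-2-A the Mini call was lost (edgeR adjusted p = 0.0920). Of the remaining genes, B2m rose 1.37-fold in Parse WT (0.45, edgeR adjusted p = 0.00606) and had a difference of 0.16 in Mini (edgeR adjusted p = 0.409). The Parse WT call of B2m was lost in the first well (edgeR adjusted p = 0.311) and with cells of up to 5000 UMIs (edgeR adjusted p = 0.0552). H2-D1 rose 1.34-fold in Parse WT (0.43, edgeR adjusted p = 0.0375) and 1.43-fold in Mini (0.52, edgeR adjusted p = 0.00517). The Parse WT call of H2-D1 was lost without any 1 of the 4 samples (edgeR adjusted p = 0.118, 0.0502, 0.112 and 0.108), and the Mini call without T-1-B (edgeR adjusted p = 0.196). Tap1 and Tap2 did not pass the test in either kit. The clusters that made up this class differed. In Parse WT, H2-K1 averaged 31.8 ± 3.79 CPM in the cluster of 755 cells and 13.99 ± 4.58 CPM in the other of 1285 (SD, n = 4), and Nlrc5 53.4 ± 23.8 and 26.1 ± 8.38 CPM. In Mini, with 609 and 1020 cells, H2-K1 averaged 28.7 ± 11.3 and 7.31 ± 2.99 CPM, and Nlrc5 27.4 ± 8.69 and 30.8 ± 3.92 CPM. The clusters led by markers of another class included, in each kit, the DP-S-like cluster with the higher mean of DP-S markers. Leaving these clusters out therefore does not show that their cells were wrongly named. Without them, none of the 6 genes passed the edgeR test at this step in Parse WT. The differences were 0.54 for Nlrc5 (edgeR adjusted p = 0.362), 0.18 for H2-D1 (edgeR adjusted p = 0.704) and 0.01 for B2m (edgeR adjusted p = 0.988). In Mini the calls of Nlrc5 (0.87, edgeR adjusted p = 0.00305) and H2-D1 (0.55, edgeR adjusted p = 0.0166) held, and H2-K1 differed by -0.20 (edgeR adjusted p = 0.798). In this step 14.0% and 13.7% of the genes tested were higher.

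The next step separated the genes in size. In DP-S/SP-CD4-like cells of Parse WT, Nlrc5 measured 171.5, 103, 123 and 113 CPM and H2-K1 46.5, 40.7, 51.9 and 39.6 CPM. Both were above all DP-S-like samples, Nlrc5 by 3.35-fold (1.74, edgeR adjusted p = 2.18e-08) and H2-K1 by 2.05-fold (1.04, edgeR adjusted p = 0.000247). In Mini, Nlrc5 measured 299, 286, 246.5 and 226 CPM and H2-K1 77.2, 103, 77.5 and 84.1 CPM, which were 8.33-fold and 6.33-fold above DP-S-like cells. H2-D1 rose 1.55-fold in Parse WT (0.63, edgeR adjusted p = 0.00247) and 2.56-fold in Mini, and B2m 1.31-fold (0.39, edgeR adjusted p = 0.0436) and 2.28-fold. The Parse WT call of H2-D1 was lost without sample 4 (edgeR adjusted p = 0.0510), and that of B2m without sample 3 (edgeR adjusted p = 0.266) or sample 4 (edgeR adjusted p = 0.318), in the second well (edgeR adjusted p = 0.597), with DESeq2 size factors (edgeR adjusted p = 0.0531) and in the DESeq2 Wald test (DESeq2 adjusted p = 0.0571). Tap1 had differences of 0.42 (edgeR adjusted p = 0.112) and 0.49 (edgeR adjusted p = 0.0721), which did not pass. The class was 1 cluster in Mini and 2 in Parse WT, which did not overlap in H2-K1 or Nlrc5. The Parse WT cluster of 2570 cells, with median UMIs per cell of 4942 to 7335, a median doublet score at percentile 76.0 and a median of 4570 CPM of the DP-R markers Rag1, Rag2, Arpp21, Aqp11 and Dntt, had 37.0 ± 4.04 CPM of H2-K1 and 104 ± 20.97 CPM of Nlrc5 (SD, n = 4). The cluster of 1859 cells, with 1533 to 3086.5 UMIs per cell, percentile 28.2 and 581 CPM, had 71.4 ± 15.1 and 207.5 ± 30.3 CPM. The part of doublets or of RNA of the DP-R class in this gap was not tested. Without the former cluster and the mature cluster of high UMIs, an alternative chosen after seeing the data, this step in Parse WT was 3.29-fold for H2-K1, 5.46-fold for Nlrc5, 2.34-fold for H2-D1, 1.77-fold for B2m and 1.52-fold for Tap1, which then passed (edgeR adjusted p = 0.0126). Without the clusters led by markers of another class, H2-K1 rose 11.4-fold and Tap1 1.49-fold in Mini (edgeR adjusted p = 0.0404 for Tap1). The background was 4.33% of genes higher in Parse WT and 11.4% in Mini.

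From DP-S/SP-CD4-like to mature SP-like cells, the 5 genes other than Tap2 rose further in Parse WT. H2-K1 was 5.40-fold higher (2.43), H2-D1 2.62-fold (1.39), B2m 2.36-fold (1.24), Nlrc5 3.16-fold (1.66) and Tap1 1.80-fold (0.85), against a background of 12.0% of genes higher. In Mini the fitted values were H2-K1 1.84-fold higher (0.88), H2-D1 1.34-fold (0.42, edgeR adjusted p = 0.00511) and Nlrc5 1.32-fold (0.40, edgeR adjusted p = 0.00167), against a background of 11.4%. The H2-D1 call in Mini was lost without T-2-A (edgeR adjusted p = 0.0845) or T-2-B (edgeR adjusted p = 0.0629). B2m and Tap1 had Mini differences of 0.26 (edgeR adjusted p = 0.109) and 0.36 (edgeR adjusted p = 0.121). The kits also differed in what these classes held. The summed level of the 5 DP-R markers had a median of 3744 CPM in DP-S/SP-CD4-like cells of Parse WT and of 790.1 CPM in those of Mini, and of 4773 CPM in the mature cells of Mini. Without the mature clusters of high UMIs, all 5 genes passed the test in both kits. H2-K1 was then 8.21-fold higher in Parse WT and 4.72-fold in Mini, H2-D1 3.81-fold and 3.00-fold, B2m 3.41-fold and 2.59-fold, Nlrc5 4.81-fold and 3.33-fold, and Tap1 2.64-fold and 2.38-fold. With the DP-S/SP-CD4-like cluster of high UMIs also left out, the Parse WT values were 5.30-fold for H2-K1, 2.62-fold for H2-D1, 2.60-fold for B2m, 3.05-fold for Nlrc5 and 2.40-fold for Tap1.

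Set against the mature level of the same sample, Nlrc5 stood at a larger share than H2-K1 in DP-S/SP-CD4-like cells, unlike in DN-like cells. Intronic reads were counted, and Nlrc5 spans 92917 bases (8493 in exons) against 4331 (2938) for H2-K1. The part of unspliced RNA in these shares was not tested. In Parse WT, Nlrc5 had reached 32.7% ± 2.51 (SD, n = 4) of its mature level and H2-K1 19.4% ± 4.37. In Mini the shares were 78.4% ± 11.7 and 58.2% ± 15.3. The share of Nlrc5 was the larger in 4 of 4 samples in each kit. Measured against the mature cells without the clusters of high UMIs, the shares were 20.7% ± 1.37 and 12.3% ± 1.85 in Parse WT and 31.1% ± 3.60 and 21.98% ± 3.95 in Mini, again with that of Nlrc5 larger in 4 of 4 samples of each kit. Without the DP-S/SP-CD4-like cluster of high UMIs as well, the Parse WT shares were 34.1% ± 2.31 for Nlrc5 and 19.6% ± 4.06 for H2-K1, larger for Nlrc5 in 4 of 4 samples. One class earlier, in DP-S-like cells, the shares of the whole class were close, at 9.68% ± 1.65 for Nlrc5 and 9.03% ± 2.36 for H2-K1 in Parse WT and 9.04% ± 2.69 and 8.86% ± 3.31 in Mini. The Mini clusters of this class differed. That of 1020 cells had 30.8 CPM of Nlrc5 and 7.31 CPM of H2-K1, and that of 609 cells 27.4 and 28.7 CPM. H2-D1 stood at 39.0% ± 7.84, B2m at 43.2% ± 6.07 and Tap1 at 56.2% ± 9.91 of the mature level in DP-S/SP-CD4-like cells of Parse WT. These genes started higher, at 18.2%, 23.4% and 40.1% in DP-R-like cells. In Mini their shares were 78.2%, 84.9% and 79.9%, beside the 78.4% of Nlrc5, from 20.4%, 32.6% and 49.2% in DP-R-like cells. Tap2 stayed between a mean of 92.5% and 108% of the mature level from DP-R-like to DP-S/SP-CD4-like cells in both kits. The ratio of Nlrc5 to H2-K1 CPM had medians of 1.00 in DN-like, 1.34 in DP-R-like, 1.76 in DP-S-like, 2.70 (range 2.38 to 3.69) in DP-S/SP-CD4-like and 1.64 in mature SP-like cells of Parse WT. In Mini the same classes had medians of 1.17, 2.07, 2.54, 2.97 (2.69 to 3.87) and 2.11, so over whole classes the ratio was highest at the same class in both kits. This did not hold for single clusters of Mini, where the DP-S-like cluster of 1020 cells had a higher ratio. That ratio rests on 3 to 8 UMIs of H2-K1 per sample.

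**Figure D2:**
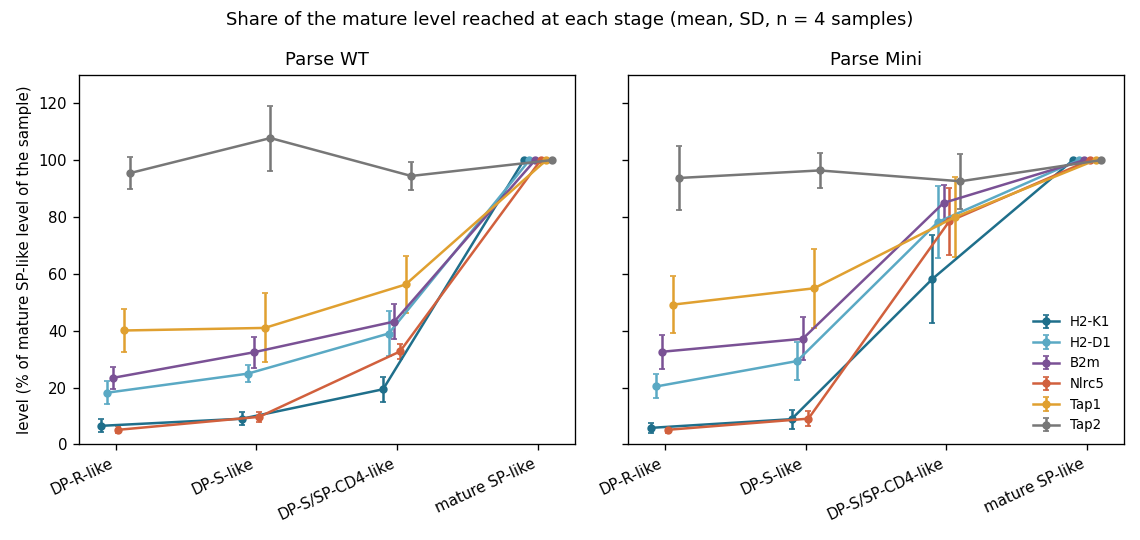
Level of each gene as a percent of its level in mature SP-like cells of the same sample, from DP-R-like to mature SP-like cells, with a point at the mean of 4 samples and a bar for 1 SD, for Parse WT (left) and Mini (right). In DP-S/SP-CD4-like cells of Parse WT, Nlrc5 stands at 32.7% and H2-K1 at 19.4%, and Tap2 stays near 100% throughout.

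**Figure D3:**
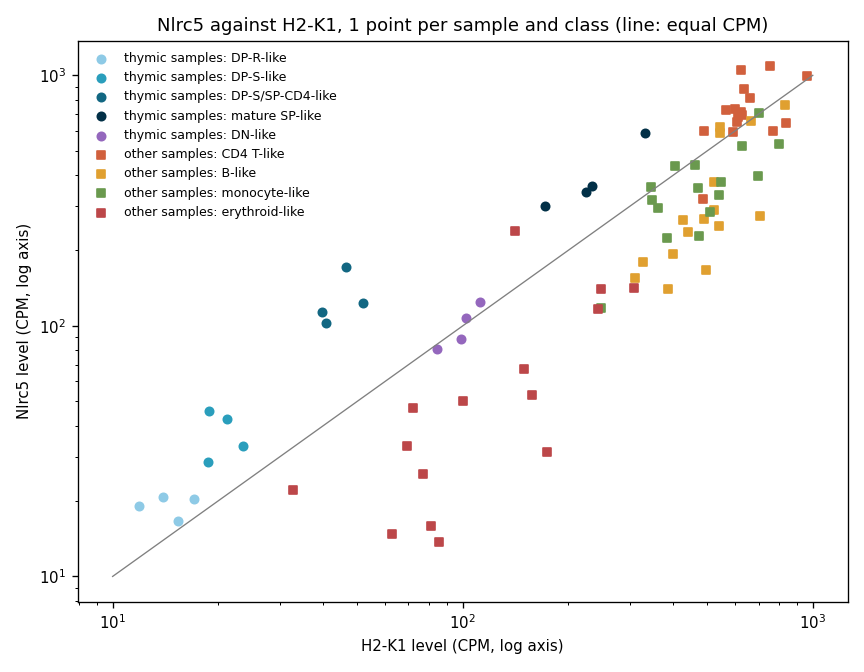
Nlrc5 against H2-K1 (CPM, log axes) with 1 point per Parse WT sample and class, circles for thymic classes, squares for classes of the other 16 samples described further on, and a line at equal CPM. DP-R-like points lie at the lower left, DP-S/SP-CD4-like points have the highest median ratio of Nlrc5 to H2-K1 (2.70), and the median of the B-like points of the other samples is 0.547 (range 0.336 to 1.14).

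The mature class of Parse WT comprised 945 CD4 SP-like cells, 474 CD8 SP-like cells and 1386 cells of a cluster that markers did not divide. H2-K1 measured 419, 285, 334.5 and 360.5 CPM in CD4 SP-like cells and 426, 322, 420 and 412 CPM in CD8 SP-like cells. The ranges overlapped, and no gene of the 6 passed the test between the lineages, in which 7.7% of 10434 genes were called in either direction. The log2 difference of CD8 from CD4 SP-like cells was 0.15 for H2-K1 (95% interval -0.07 to 0.36, edgeR adjusted p = 0.515), 0.01 for H2-D1 (-0.24 to 0.27), 0.12 for B2m (-0.12 to 0.36), 0.06 for Nlrc5 (-0.15 to 0.26) and -0.05 for Tap1 (-0.39 to 0.29). For Tap2 it was -0.43 (-0.76 to -0.11, edgeR adjusted p = 0.0949), with means of 120 ± 14.6 CPM in CD4 and 89.7 ± 10.3 CPM in CD8 SP-like cells. Against DP-R-like cells, H2-K1 was 23.3-fold higher in CD4 SP-like and 25.8-fold higher in CD8 SP-like cells, and Nlrc5 30.3-fold and 31.6-fold (12.3% and 13.4% of the genes tested were at least 2-fold higher).

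The undivided mature cluster was lower than the CD4 SP-like one and held more UMIs per cell, with medians of 5636 to 8534 across the samples against 1710 to 2976 in CD4 SP-like cells. H2-K1 measured 235.5, 131, 190 and 167 CPM there, which was 2.05-fold lower than in CD4 SP-like cells, and H2-D1, B2m, Nlrc5 and Tap1 were also lower, with fitted ratios of 0.521, 0.532, 0.472 and 0.501, where 12.6% of the genes tested were lower. The ratio of Tap2 was 0.974 (edgeR adjusted p = 0.907). The same 5 DP-R markers summed to a median of 4242 CPM (range 4091 to 4635) in this cluster, 492 CPM (88.0 to 595) in CD4 SP-like and 8252 CPM in DP-R-like cells. The 7 mature T markers summed to a median of 1392 CPM in the undivided cluster and 2766 CPM in CD4 SP-like cells. Its cells had a median doublet score at percentile 81.2 of their sample, against 35.3 in CD4 SP-like cells. The study's own doublet caller marked a larger share of cells than was left out here.

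The 1767 mature cells of Mini fell into 2 undivided clusters that were far apart. The cluster of 1152 cells had 68.9, 107, 114 and 117 CPM of H2-K1 and 266, 238, 177 and 239 CPM of Nlrc5. The cluster of 615 cells had 318, 399, 457 and 403 CPM of H2-K1 and 837, 896, 903 and 768 CPM of Nlrc5, above all samples of the former. H2-K1, H2-D1, B2m, Nlrc5 and Tap1 in the larger cluster each overlapped the range of DP-S/SP-CD4-like cells. Its means were below those of that class for H2-D1 (96.5 against 101 CPM), B2m (98.3 against 112 CPM) and Nlrc5 (230 against 264 CPM). For H2-K1 (102 against 85.5 CPM) and Tap1 (44.4 against 42.5 CPM) its means were above. The larger cluster had median UMIs per cell of 4944 to 7066.5, a median of 5641 CPM of the 5 DP-R markers and 991 CPM of the mature T markers, and a median doublet score at percentile 82.5. The smaller cluster had 1488.5 to 2741 UMIs per cell, 644 CPM, 3033 CPM and percentile 49.4. The part of doublets or of RNA of the DP-R class in the lower levels of the cluster of high UMIs in each kit was not tested.

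When cells were instead picked by their UMIs of the DP-R and mature T markers, without clusters, the rise of H2-K1 over DP-R cells was 3.99 on the log2 scale in Parse WT and 4.59 in Mini, that of Nlrc5 4.08 and 4.70, of H2-D1 2.84 and 3.49, of B2m 2.47 and 2.51 and of Tap1 1.61 and 1.63.

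Among the other thymic T cells of Parse WT, Treg-like cells (538 cells) had 248 ± 42.7 CPM of H2-K1 and 333.5 ± 80.2 CPM of Nlrc5 (SD, n = 4), 15.7-fold and 16.4-fold above DP-R-like cells, where 19.7% of the genes tested were higher. Innate-like T cells (591 cells), led by Zbtb16 in the larger of their clusters, had 162.5 ± 41.4 and 209 ± 109 CPM, 10.4-fold and 9.49-fold above DP-R-like cells (27.7% of the genes higher). Their clusters were apart, with 182 CPM of H2-K1 and 204 CPM of Nlrc5 over the 458 cells led by Zbtb16 and 60.3 and 81.1 CPM over the 133 cells led by Scart2 and Sox13. Sample 1 was the highest of the 4 for Nlrc5 in both classes. The 5 DP-R markers summed to a median of 2556 CPM (1534 to 3093) in Treg-like and 3030 CPM (2095 to 3688) in innate-like T cells, against 492 CPM in mature CD4 SP-like cells, and the part of this RNA in their levels was not tested. Thymic B-like cells (529 cells) had 504, 239.96, 365 and 317 CPM of H2-K1, with 1 sample above and 1 below the range of the CD4 SP-like cells. Their larger cluster, of 320 cells, drew 69.7% of its cells from 1 sample. The part of RNA of other classes in the B-like levels was not tested.

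The rise was also seen in the number of cells in which a UMI was found. After thinning each cell to 1000 UMIs, at least 1 UMI of H2-K1 was found in 1.24% ± 0.169 of DP-R-like and 20.7% ± 4.58 of mature SP-like cells of Parse WT (SD, n = 4), against 3.00% and 56.6% without thinning. In Mini the thinned shares were 0.756% ± 0.130 and 14.7% ± 2.92 (1.69% and 42.8% without thinning). Nlrc5 went from 1.46% over 10.9% in DP-S/SP-CD4-like cells to 30.01% in mature SP-like cells of Parse WT, and from 1.33% over 17.1% to 28.0% in Mini. Tap2 was found in 8.12% and 8.82% of thinned DP-R-like and mature cells of Parse WT. Thinning left out 1988 DP-R-like and 83 mature cells of Parse WT and 1455 and 78 of Mini, which had fewer UMIs. Depth differed between the classes, with median UMIs per cell of 1631 to 2734 in DP-R-like and 3611 to 4702 in mature SP-like cells across the Parse WT samples. Within cells of 1000 to 2000 UMIs, H2-K1 was at 14.9 CPM in DP-R-like and 409 CPM in mature SP-like cells of Parse WT, and at 7.83 and 352 CPM in Mini, over all samples together. Within cells of 5000 to 25000 UMIs it was at 15.5 and 185 CPM, and at 8.31 and 111 CPM. Mature cells stood above DP-R-like cells in each range of depth.

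The DP-R-like level of H2-K1 did not overlap between the kits, at 11.9 to 17.1 CPM in Parse WT and 7.53 to 10.6 CPM in Mini. The 7 B cell markers summed to a median of 110 CPM (89.5 to 140) in DP-R-like cells of Parse WT, the kit that also held the B-like cells of the other samples, and to 10.8 CPM (6.15 to 13.1) in those of Mini. The part of such RNA in the level of H2-K1 was not tested.

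The genes around the pathway were counted in the same comparison of mature SP-like with DP-R-like cells, over 6 lists. Genes were tested where enough samples had counts, whichever class these came from. Genes almost absent from DP-R-like cells, such as H2-Q7 in Parse WT and Oasl2, could therefore hardly be called lower. They enter the counts and medians below. Of all genes tested, 19.2% in Parse WT and 18.6% in Mini were lower in mature cells, beside the 25.7% and 21.2% that were higher. The median log2 difference of all genes tested was 0.02 in Parse WT and -0.00 in Mini, beside 2.26 and 1.95 for the 6 class I genes. Among the class Ib and non-classical genes, 10 of 15 were tested in Parse WT, of which 7 were higher and 3 lower (median 1.29), and 8 in Mini, with 5 higher and 2 lower (median 0.81). H2-Q4 was 3.36-fold and 2.32-fold higher in Parse WT and Mini, H2-T24 3.00-fold and 2.34-fold, and H2-T22, a ligand of gamma-delta T cell receptors, 2.26-fold and 2.02-fold. H2-Q7, which encodes a Qa-2 antigen, averaged 0.108 ± 0.0740 CPM in DP-R-like and 15.0 ± 4.76 CPM in mature SP-like cells of Parse WT. These relatives share sequence, and reads could be divided among them.

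In the peptide loading list, 6 of 8 genes were higher in each kit and none lower (medians 0.81 and 0.64). They included Tapbp (tapasin, which bridges the transporter and the heavy chain), at 2.97-fold and 2.27-fold, the endoplasmic reticulum chaperones Calr (1.99-fold and 1.70-fold) and Hspa5 (2.10-fold and 2.17-fold), and the peptide-trimming Erap1 (1.95-fold and 1.68-fold). Tapbpl differed by -0.20 (edgeR adjusted p = 0.109) in Parse WT, and Sec61a1 by 0.09 (edgeR adjusted p = 0.451). Of the 5 immunoproteasome genes, 4 were higher in Parse WT and 3 in Mini (medians 1.08 and 0.78). Psme2 and Psme1, subunits of the PA28 activator, were 2.91-fold and 1.63-fold higher in Parse WT and 2.05-fold and 1.72-fold in Mini, and Psmb9 2.87-fold and 2.54-fold. Psmb10 was 2.11-fold higher in Parse WT and had a difference of 0.59 in Mini (edgeR adjusted p = 0.0824). Psmb8 did not pass the test in Parse WT (0.14, edgeR adjusted p = 0.136) or in Mini (0.10, edgeR adjusted p = 0.475). Of 6 genes tested in the list named constitutive proteasome, 1 was lower in Parse WT (Psma1, -0.26, edgeR adjusted p = 0.0271) and 1 higher in Mini (Psma3, 0.22, edgeR adjusted p = 0.0455), with medians of 0.00 and -0.03. Not all members of this list are specific to the constitutive form, Psma1 and Psma3 among those that are not. The other differences in Parse WT were -0.14 for Psmb7, -0.01 for Psma3, 0.01 for Psmb6, 0.04 for Psmb5 and 0.22 for Psme3 (edgeR adjusted p = 0.258, 0.921, 0.947, 0.915 and 0.0969).

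Of the regulators of class I transcription other than Nlrc5, 13 were tested in Parse WT, with 3 higher and 5 lower (median -0.19), and 12 in Mini, with 3 higher and 3 lower (median -0.14), so the numbers of higher genes were near the shares over all genes. Nfkb1 was 2.68-fold and 2.51-fold higher, Irf1 2.01-fold and 1.94-fold, and Irf2 1.37-fold and 1.15-fold. Ezh2, the histone H3 lysine methyltransferase of Polycomb, was 1.39-fold and 1.32-fold lower. Of the interferon receptors, signalling genes and targets, 21 of 22 were higher in Parse WT and 1 lower (median 1.604), and 17 of the 19 tested in Mini were higher (median 1.34). These counts include genes almost absent from DP-R-like cells, and Ifit3, Isg15 and Bst2 were not tested in Mini. Ifngr2, a subunit of the interferon gamma receptor, was 2.87-fold and 2.48-fold higher, Irf9 3.23-fold and 3.01-fold, the kinase gene Jak1 1.72-fold and 1.44-fold, and Oasl2 27.8-fold and 40.1-fold, the last from 0.787 and 0.325 CPM in DP-R-like cells. The gene of this list that was lower was Ifngr1, which encodes the other subunit of that receptor, at -0.57 in Parse WT (edgeR adjusted p = 5.06e-05) and -0.48 in Mini (edgeR adjusted p = 1.36e-13). It was named after its values were seen.

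**Figure D4:**
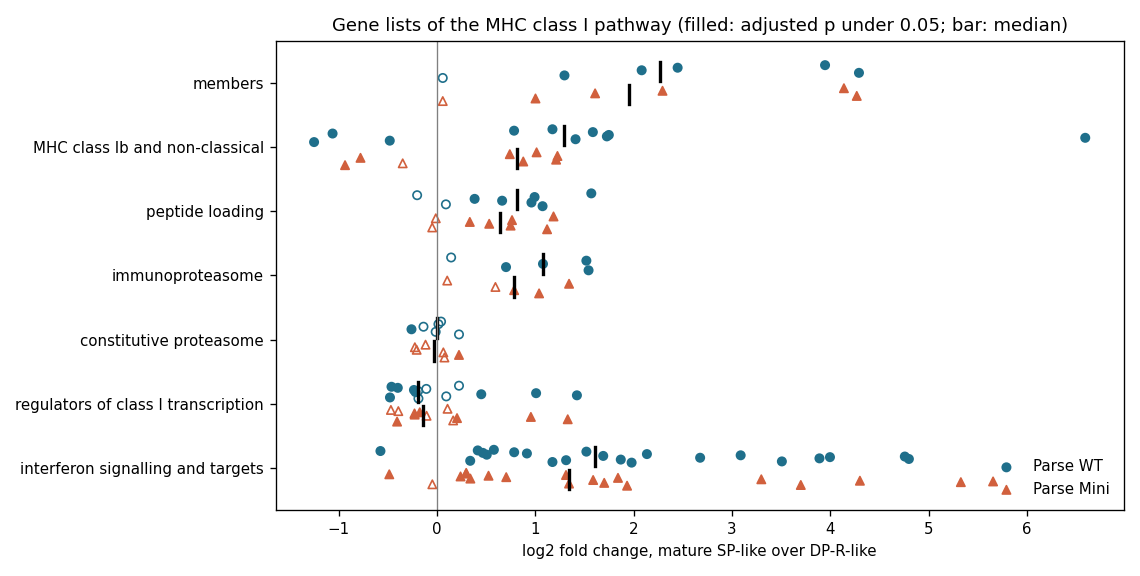
Log2 difference of mature SP-like from DP-R-like cells for each gene tested in the 6 class I genes and the 6 related lists, for Parse WT and Mini, with filled points for edgeR adjusted p under 0.05 and a bar at the median. The class I genes have medians of 2.26 and 1.95, the interferon list 1.604 and 1.34, and the constitutive proteasome list lies around 0. Genes almost absent from DP-R-like cells could hardly come out lower.

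Across the 32 sums of the Parse WT thymocyte samples and classes, the genes whose log2(CPM + 1) was most like that of H2-K1, among 6565 genes, were H2-D1 (Pearson r = 0.986, and 0.925 over the 24 Mini sums), Smad7 (0.979 and 0.930), Ifi213 (0.968 and 0.921), B2m (0.966 and 0.943) and Gvin3 (0.958 and 0.976). Those most like Nlrc5 included Gvin3 (0.963 and 0.961), H2-K1 itself (0.956 and 0.951), H2-D1 (0.954 and 0.951) and Galnt6 (0.953 and 0.953). Tap1 followed H2-K1 less closely, at 0.823 and 0.790. Tap2 had correlations with H2-K1 of -0.207 in Parse WT and 0.273 in Mini. The sums share samples, libraries and depth, and these values describe likeness across classes.

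In the other 16 samples, where tissue, age and treatment were not tied to samples, the genes were compared across cell classes within the same sample. CD4 T-like cells (7016 cells) had a median of 625 CPM of H2-K1 over 16 samples (lowest 485, highest 963), CD8 T-like cells (5663 cells) 662 CPM (391 to 1019) and Treg-like cells 738 CPM (521 to 1169, 14 samples). B-like cells (36709 cells) had 509 CPM (310 to 832), monocyte-like cells 472 CPM (248 to 801), conventional dendritic cell (cDC)-like cells 536 CPM (366 to 909, 15 samples), neutrophil-like cells 351 CPM (99.8 to 651) and macrophage-like cells 295 CPM (246 to 669, 13 samples). Natural killer (NK)-like and plasmacytoid dendritic cell (pDC)-like cells had 623 and 603 CPM over 6 samples each, plasma-like cells 383 CPM and cycling B-like cells 302 CPM. The 7 B cell markers summed to medians of 4665 CPM (783 to 6502) in neutrophil-like, 1902 CPM in macrophage-like, 1638 CPM in plasma-like, 1487 CPM in monocyte-like and 1236 CPM in cDC-like cells, against 356 CPM in CD4 T-like and 10622 CPM in B-like cells, and the part of B cell RNA in the levels of these classes was not tested. Erythroid-like cells were the lowest in H2-K1, at 100.2 CPM (32.9 to 309, 15 samples). The ranges of neighbouring classes overlapped, and all mature T, B and myeloid medians lay above the 4 DP-R-like values of the Parse WT thymic samples.

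Within samples the order was steadier than the ranges. CD4 T-like cells had more H2-K1 than B-like cells in 16 of 16 samples (median ratio 1.24), and CD8 T-like cells also in 16 of 16 (median ratio 1.31). The same held for H2-D1 (16 of 16, 1.40), B2m (1.32) and Tap1 (1.49) in CD4 T-like against B-like cells. Nlrc5 set T and B cells furthest apart, at 703 CPM in CD4 T-like, 810 CPM in CD8 T-like and 266 CPM (141 to 758) in B-like cells, with median ratios to B-like cells of 2.45 (1.00 to 4.75) and 2.92. CD8 T-like cells had more Nlrc5 than CD4 T-like cells in all but 2 of 16 samples (median ratio of CD4 to CD8 0.843). Tap2 was at 142 CPM in CD4 T-like, 138 CPM in CD8 T-like and 82.6 CPM in B-like cells, higher in CD4 T-like than in B-like cells in 15 of 16 samples, and at 146 CPM in cDC-like, 72.4 CPM in monocyte-like and 17.1 CPM in erythroid-like cells.

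The heavy chains and their partners were not in the same order across the antigen-presenting classes. H2-D1 was lower in B-like than in monocyte-like cells in 16 of 16 samples (474 and 644 CPM, median ratio 0.751). H2-K1 was higher in B-like cells in 12 of 16, by a median ratio of only 1.06. This count was 10 of 16 with thinned cells or with doublets kept, and 13 of 16 with ribosomal RNA in the denominator. Against cDC-like cells, B-like cells were lower for B2m (295 against 398 CPM), Tap1 (118 against 160 CPM) and Tap2 in 15 of 15 samples each, and for Nlrc5 (266 against 592 CPM) in 14 of 15. The ratio of Nlrc5 to H2-K1 CPM had a median of 1.13 in CD4 T-like, 1.22 in CD8 T-like, 1.21 in Treg-like and 1.16 in cDC-like cells, and of 0.547 in B-like, 0.721 in monocyte-like, 0.796 in NK-like, 0.620 in plasma-like, 0.439 in pDC-like and 0.460 in erythroid-like cells. No class of these samples had a median as high as the 2.70 of the thymic DP-S/SP-CD4-like cells.

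**Figure D5:**
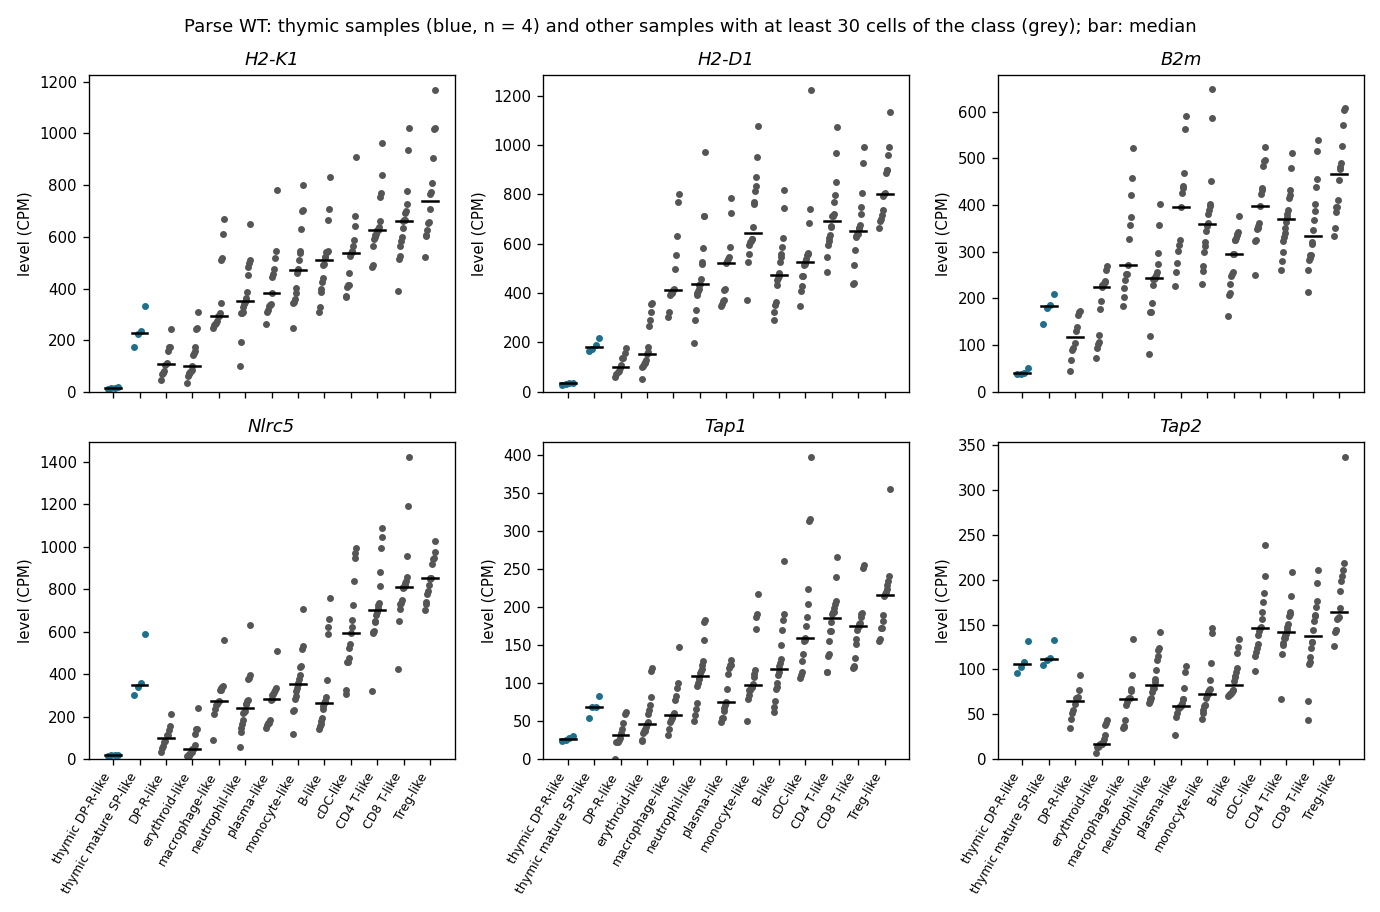
Levels of the 6 genes (CPM) in DP-R-like and mature SP-like cells of the 4 Parse WT thymic samples (blue) and in the cell classes of the other 16 Parse WT samples (grey), with 1 point per sample and class and a bar at the median. CD4 T-like cells have a median of 625 CPM of H2-K1 and erythroid-like cells of 100.2 CPM, and Nlrc5 is at 703 CPM in CD4 T-like and 266 CPM in B-like cells.

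A further DP-R-like class, of 2166 cells in 10 of the samples called non-thymic, had a median of 108 CPM of H2-K1 (46.2 to 242) and 99.0 CPM of Nlrc5. The 7 B cell markers summed to a median of 1526 CPM (329 to 3387) in it, against 110 CPM in DP-R-like cells of the thymic samples. Its samples held 37 to 463 such cells, with median UMIs of 916 to 1275 per cell. The part of B cell RNA in its level was not tested.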

How the data were processed

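The authors deposited UMI counts per gene and cell, made with split-pipe from paired reads on mm10 and combined over sublibraries, with intronic reads counted (no versions were stated). Cells were kept between 500 and 25000 UMIs with mitochondrial UMIs of no more than 15%. The 5% with the highest doublet scores (from simulated pairs of cells) were left out. The rest were clustered by Leiden (leidenalg 0.10.2, resolution 1.6, 30 components, 20 neighbours), and clusters of at least 50 cells were named where at least 3 markers of a list were raised 1.25-fold, limits set after the data were seen. The names were rebuilt here and may differ from those of the study. The 6 genes and all lists were chosen with earlier results of these data known.

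Counts were summed per sample and class (at least 30 cells), and all classes of a kit were fitted together with edgeR 4.0.16 (filterByExpr, TMM, quasi-likelihood, Benjamini-Hochberg adjustment over all genes), with the tissue sample as a block. Classes of a sample come from one suspension, and their deviations from the class means correlated at 0.606 to 0.805 in Parse WT and 0.418 to 0.507 in Mini. A gene was called at an adjusted p under 0.05. Of each list, up to 4 called genes of smallest p in Parse WT were named, and those not called in lists of at most 8. Alternatives were DESeq2 1.42.0, other scalings, wells, filters, resolutions and doublet limits, and leaving out each sample. Leaving out 20% by doublet score, using cells of up to 5000 UMIs, adding DP-S/SP-CD4-like to SP-like cells, scaling by library size alone, and leaving out the mature clusters of over 2 times their samples' median UMIs (also with the DP-S/SP-CD4-like cluster of over 1.5 times) or the clusters led by markers of another class were chosen after seeing the data. The fit was also run on simulated counts with known changes, drawn independently for each sum. These lack the correlation between classes of a sample, so they cannot show how the fit deals with it. The kit primes with polyT and random hexamers, so levels were compared between classes. The ratio of Nlrc5 to H2-K1 CPM was also compared between classes, and its size does not say which gene has more transcripts. Of each table of cells, 8 columns were not used. 10x libraries were not analysed here. Results that need certain genes are not reported here.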

Additional observations from a re-analysis of the deposited data

Results flagged for a closer look

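Of 84 groups of 4 samples, 3 held a sample apart from the other 3 by more than the critical value of Dixon's test, which chance gives in about 1 of 20 groups. H2-K1 in DP-S-like cells of Mini was 20.0 CPM in T-2-A, against 10.2 to 10.99 CPM in the other samples. H2-K1 in mature SP-like cells of Mini was 96.5 CPM in T-1-A, against 166 to 180 CPM in the others. Tap2 in DP-S/SP-CD4-like cells of Mini was 102 CPM in T-1-B, against 125 to 127 CPM in the others.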

How the results depend on the processing

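The rises of H2-K1, H2-D1, B2m, Nlrc5 and Tap1 from DP-R-like to mature SP-like cells passed the test under all 24 alternatives in each kit, with log2 differences of 3.00 to 4.58, 1.79 to 3.02, 1.47 to 2.64, 3.54 to 4.93 and 0.86 to 1.87 in Parse WT and 3.91 to 5.48, 2.08 to 3.49, 1.42 to 2.70, 3.97 to 5.58 and 0.80 to 1.87 in Mini. Leaving out 1 sample gave 3.71 to 4.06 for H2-K1 and 4.07 to 4.35 for Nlrc5 in Parse WT, and 4.01 to 4.27 and 4.13 to 4.40 in Mini. Without the replicate block, 3550 genes were called in Parse WT (2154 higher, 1031 at least 2-fold) and 3467 in Mini (1905 and 758), H2-K1 differed by 3.99, Nlrc5 by 4.34 and Tap2 by 0.07 in Parse WT, and the calls lost were those of B2m from DP-S-like to DP-S/SP-CD4-like cells in Parse WT (0.39, adjusted p = 0.140) and of H2-D1 from DP-R-like to DP-S-like (0.53, 0.0551) and to mature cells from DP-S/SP-CD4-like cells (0.38, 0.112) in Mini.

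Counts of genes moved by over 1.5 times with cells thinned to 1000 UMIs (Parse WT 3049 called, 1619 higher and 626 at least 2-fold; Mini 2376 and 1143), in the second well of Parse WT (1928 higher), in the first (2073, 1131 and 461), the second (2203, 1109 and 462) and the third (2302 and 1277) well of Mini, and with cells picked by markers in Mini (1232 at least 2-fold). Thinned cells and single wells hold fewer UMIs, and the cause of the last was not tested.

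The values that reversed had not passed the test in the analysis as reported, and 1 of them passed it after reversal, Tap2 with cells picked by markers in Parse WT. The Tap2 difference of mature from DP-R-like cells in Parse WT was -0.0246 with no filter, -0.0661 thinned, -0.226 with cells picked by markers (adjusted p = 0.0494), -0.0159 in the second well, -0.0149 at the higher resolution, -0.0278 with 20% of cells left out by doublet score, -0.0116 with DP-S/SP-CD4-like cells added, -0.114 without the mature cluster of high UMIs, -0.0598 without that of DP-S/SP-CD4-like cells as well and -0.0113 to 0.0789 without 1 sample. In Mini it was -0.00327 thinned, -0.295 with cells picked by markers (adjusted p = 0.0521), -0.0365 at the higher resolution, -0.0486 with 20% left out and -0.0718 to 0.103 without 1 sample. Between DN-like and DP-P-like cells, Tap1 in Parse WT was -0.0262 with no filter, -0.584 with cells of up to 5000 UMIs and -0.0452 to 0.113 without 1 sample, and Tap2 -0.0381 with no filter and -0.0441 to 0.126 without 1 sample. In Mini this Tap1 value was -0.0450 with no filter, -0.0434 in the third well, -0.0320 with 20% left out and -0.0776 with cells of up to 5000 UMIs. Between DP-S-like and DP-R-like cells, Tap1 in Parse WT was -0.0817 with no filter, -0.147 in the first well, -0.0189 with 20% left out, -0.0527 with cells of up to 5000 UMIs, -0.00283 without the mature cluster of high UMIs, -0.0351 without the clusters led by markers of another class and -0.0608 to 0.0592 without 1 sample, and in Mini -0.0205 in the first well. Tap2 in Mini was -0.0350 with no filter, -0.0882 in the third well, -0.0362 with 20% left out, -0.0233 with cells of up to 5000 UMIs, -0.0291 without the clusters led by markers of another class (where H2-K1 was -0.201) and -0.0451 to 0.0872 without 1 sample, and B2m -0.183 in the second well. Tap2 in Mini was 0.0944 in the third well between DP-S/SP-CD4-like and DP-S-like cells, and -0.00413 in the second well between mature and DP-S/SP-CD4-like cells, where Parse WT had -0.0346 without the mature cluster of high UMIs. Between CD8 and CD4 SP-like cells, the first well gave 0.446 for Tap1, -0.101 for B2m and -0.143 for H2-D1, no filter -0.0174 for H2-D1 and the second well -0.0326 for Nlrc5, and leaving out 1 sample gave -0.192 to 0.0761 for Tap1, -0.0359 to 0.175 for B2m and -0.0682 to 0.0540 for H2-D1.

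Of the 16 calls along the steps of maturation in Parse WT, 249 of 272 alternative values kept their call and 23 lost it, and of the 14 in Mini 214 of 238 kept it and 24 lost it. Not all of the lost calls are named here. In Mini, Nlrc5 from DP-R-like to DP-S-like cells was not called in single wells (adjusted p = 0.0537 to 0.108) or with 20% of cells left out (0.105), and its last step not in the first (0.0543) or the third (0.192) well or with doublets kept (0.0522). Differences not called as reported passed in 3 of 220 alternative values in Parse WT and 10 of 170 in Mini. In Parse WT these were Tap1 from DP-S-like to DP-S/SP-CD4-like cells with cells of up to 5000 UMIs (0.0248) and without the clusters of high UMIs (0.0126), and Tap2 between DN-like and DP-P-like cells with cells of up to 5000 UMIs (0.0212). In Mini they were H2-K1 from DP-R-like to DP-S-like cells with doublets kept (0.0297), Tap1 at the next step with doublets kept (0.0466), library size alone (0.0362) or no clusters led by markers of another class (0.0404), and B2m and Tap1 at the last step with cells of up to 5000 UMIs (1.87e-07 and 0.000889), 20% of cells left out (1.87e-05 and 0.00859) or no mature cluster of high UMIs (1.98e-15 and 1.16e-07). The cause was not tested.

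Of 372 alternative values of the levels in the other 16 samples, 32 moved by more than the SD between samples. With ribosomal RNA kept in the denominator, 28 of 96 did so, all of them lower, and all 96 were 0.526 to 0.899 times the value reported. With cells thinned to 1000 UMIs 3 did so, with at least 100 cells per class 1, and with doublets kept 0. H2-K1 was higher in CD4 T-like than in B-like cells in 16 of 16 samples under each of these alternatives (15 of 15 with at least 100 cells). Nlrc5 was so in 15 or 16 of 16, Tap1 in 13 of 16 thinned and 15 of 16 with ribosomal RNA, and H2-D1 was lower in B-like than in monocyte-like cells in every sample with both. With thinned cells, B2m and Tap2 were lower in B-like than in cDC-like cells in 12 of 15 samples each.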

Other observations

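Small clusters that stayed without a name differed in the balance of these genes. A cluster of 43 Parse WT thymic cells led by Mx2, Ifi206 and Ifih1, genes known as interferon targets, had 301 CPM of Nlrc5, 33.4 CPM of H2-K1 and 78.0 CPM of Tap2 over all samples together. A cluster of 30 Mini cells led by Lrrk1, Ccl22 and Fscn1 had 1746 CPM of Nlrc5 and 576 CPM of H2-K1. Each rests on fewer than 50 cells, and neither was tested.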
